A study of Mus musculus with 18 samples.

Results

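The matrix-binding integrins described here are 10 genes that encode receptor subunits for fibronectin, vitronectin, collagens and laminins: Itgav, Itga5, Itga8, Itga1, Itga2, Itga11, Itga7, Itgb1, Itgb3 and Itgb5. They were chosen by gene name from the 20878 genes of the expression matrix, with earlier results of these data known, and all 10 were present. RNA had been sequenced from 18 tumors grown in female mice, 6 to 8 weeks old, after injection of K7M2 cells, a mouse osteosarcoma line derived from Balb/c. The cells carried lentiviral shRNA, either a control (ATRXCT) or one against Atrx (ATRXKD), which encodes a chromatin remodeler. The hosts were Balb/c mice, syngeneic and immunocompetent, or NSG mice (NOD.Cg-Prkdcscid Il2rgtm1Wjl/SzJ), which lack T, B and NK cells.

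There were 4 tumors in the Balb/c ATRXCT group (mice 41, 43, 44 and 45) and 4 in the Balb/c ATRXKD group (mice 56, 58, 59 and 60). The NSG ATRXCT group had 5 tumors (mice 1 to 5), as did the NSG ATRXKD group (mice 26 to 30), and each tumor came from its own mouse. Whole cages were assigned to a kind of cells and the labels give no cage, so cage and shRNA cannot be told apart. Hosts differ in strain as well as in lymphocytes, and these also cannot be told apart. Tumor and host are both mouse, so the RNA of grafted cells and of host cells within a tumor was measured together.

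Integrins are receptors made of 1 alpha and 1 beta chain that span the membrane and link the matrix outside the cell to actin inside it. The beta chain Itgb1 pairs with many alpha chains, whereas Itgav pairs with Itgb1, Itgb3 or Itgb5. The chains Itgav, Itga5 and Itga8 form receptors for ligands with an RGD motif, such as fibronectin and vitronectin. The collagen receptors contain Itga1, Itga2 or Itga11, and the laminin receptor of muscle contains Itga7. In bone, Itgav with Itgb3 is best known from osteoclasts, and endothelial cells of growing vessels also carry it.

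The 250 bases before the start site are shown for Itgav, Itga1 and Itgb1, because the levels of these genes are the ones the results below turn on and a promoter was listed for them. The sequences are from RefSeq (GRCm38.p6, the same assembly as mm10) and are written 5′ to 3′ on the strand of the gene, with motif matches in capitals.

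Itgav, chr2:83724147-83724396, plus strand: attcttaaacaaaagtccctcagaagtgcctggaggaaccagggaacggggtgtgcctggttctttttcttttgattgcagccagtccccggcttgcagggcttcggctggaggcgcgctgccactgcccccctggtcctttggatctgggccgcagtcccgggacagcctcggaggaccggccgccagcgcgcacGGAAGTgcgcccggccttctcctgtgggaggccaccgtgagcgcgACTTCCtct
Itga1, chr13:115101965-115102214, minus strand: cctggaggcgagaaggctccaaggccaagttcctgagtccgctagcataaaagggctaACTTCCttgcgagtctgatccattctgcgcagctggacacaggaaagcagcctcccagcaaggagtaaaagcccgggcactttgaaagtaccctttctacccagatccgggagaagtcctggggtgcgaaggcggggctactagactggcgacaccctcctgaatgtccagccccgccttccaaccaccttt
Itgb1, chr8:128685404-128685653, plus strand: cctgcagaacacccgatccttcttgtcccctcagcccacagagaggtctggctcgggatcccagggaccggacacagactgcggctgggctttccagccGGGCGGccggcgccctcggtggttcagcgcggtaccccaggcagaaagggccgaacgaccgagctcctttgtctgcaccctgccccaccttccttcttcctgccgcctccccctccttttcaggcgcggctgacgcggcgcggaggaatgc

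Both strands were searched for 4 motifs: GGAAGT, the core of sites for ETS factors; GGGCGG, the GC box of Sp factors; TATAAA; and TGANTCA, bound by AP-1. Promoters were found for 8 of the 10 genes, and for Itga7 and Itgb3 none was listed. GGAAGT was in 3 of the 8 (Itgav, Itga1 and Itga11), and in 19.8% of the 32536 mouse promoters of the same length. GGGCGG was also in 3 of the 8 (Itga5, Itgb1 and Itgb5), against 33.0% of all promoters. No match to TATAAA or TGANTCA lay in the 8 windows, whereas 12.3% and 6.73% of all promoters held them. In Itgav, the GGAAGT matches began 54 and 9 bases before the start site, in Itga1 the match began 192 bases before it, and in Itgb1 the GGGCGG match began 151 bases before it. These matches describe the letters only.

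The gene of Itgav spans 83724397 to 83806917 on the plus strand of chromosome 2 (mm10), and its transcript of 7055 nt is the longest of the 10, with 30 exons. Itga1 covers 114958079 to 115101964 on chromosome 13, minus strand (5984 nt, 29 exons), next to Itga2 at 114835912 to 114932041 on the same strand. Itgb1 lies on the plus strand of chromosome 8 from 128685654 to 128733579 (4194 nt, 16 exons), and Itgb3 on the plus strand of chromosome 11 from 104608000 to 104670473 (5781 nt, 15 exons). The shortest of the 10 is Itgb5, with transcripts of 3282 and 3253 nt.

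Values are FPKM (fragments normalized for transcript length and library size), which can be compared between genes because they are per length. The beta chain Itgb1 stood highest, between 140 and 206 FPKM over the 18 tumors, followed by Itgav at 32.3 to 79.5 FPKM, Itgb5 at 24.6 to 65.7 FPKM and Itga5 at 14.9 to 41.8 FPKM. A second tier held Itgb3 at 0.695 to 6.60 FPKM, Itga1 at 0.720 to 6.76 FPKM and Itga7 at 0.772 to 3.82 FPKM. Lower still were Itga2 at 0.239 to 0.950 FPKM, Itga11 at 0.0937 to 1.48 FPKM and Itga8 at 0.0280 to 0.217 FPKM.

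Neighbors in this order were compared within tumors on the log2 scale by a permutation test with random sign flips, two-sided and adjusted over 9 neighbor steps. The steps that passed were Itgb1 over Itgav (adjusted p = 4.5e-05), Itgb5 over Itga5 (0.000234), Itga5 over Itgb3 (6.0e-05), Itga7 over Itga2 (4.5e-05) and Itga11 over Itga8 (9.0e-05). Itgav and Itgb5 were not separated (adjusted p = 0.13), nor were Itgb3 and Itga1 (0.228), Itga1 and Itga7 (0.538) or Itga2 and Itga11 (0.255). At an estimated 15000000 to 25250000 fragments per library, Itga8 rested on about 2.89 to 23.9 fragments per tumor and Itgb1 on about 8738 to 19804. The floor of 3 fragments, which covers counting error only, was 0.0211 to 0.0356 FPKM, and Itga8 rested on a median of 13.1 fragments.

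**Figure D1:**
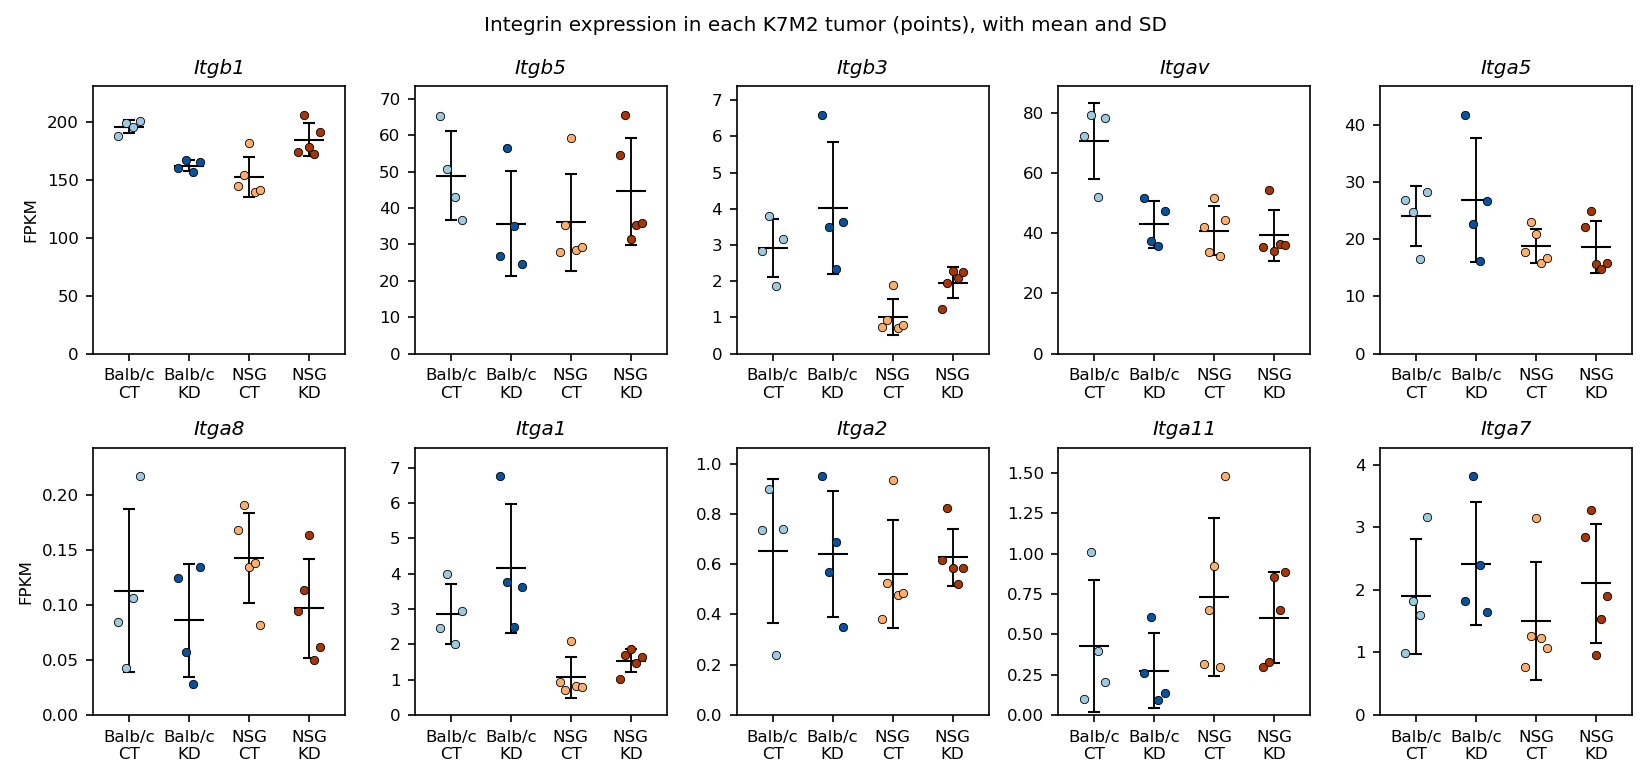
FPKM of each integrin (vertical axes, each starting at 0) by group; a point is 1 tumor, the dash the mean and the bars the SD, with 4 tumors per Balb/c group and 5 per NSG group. The 4 Balb/c ATRXKD tumors lie at 157 to 167 FPKM for Itgb1, below all 4 Balb/c ATRXCT tumors at 188 to 201 FPKM.

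The libraries showed features that touch the integrins and are therefore given first. T cell genes gave summed levels of 28.6 to 54.9 FPKM in Balb/c tumors and 1.13 to 6.31 FPKM in NSG tumors, as the host labels say. Atrx itself differed by −0.34 on the log2 scale between ATRXKD and ATRXCT in Balb/c mice (SE 0.36, limma adjusted p = 0.999; exact permutation test, p = 0.486). In NSG mice it differed by −0.74 (SE 0.22, limma adjusted p = 0.061; exact permutation test, p = 0.0317). Its RNA level thus passed limma in neither host. The study reported loss of ATRX protein in the K7M2 cells by western blot. Tumors of Balb/c mice 45 (ATRXCT) and 60 (ATRXKD) stood apart from their groups in keratinocyte genes, summed to 98.5 and 16.3 FPKM against 1.69 to 2.52 FPKM in the other tumors of these groups and 1.40 to 18.9 FPKM in NSG tumors. Defining markers of bone-forming cells were near absent: Ibsp was listed at 0 in 15 tumors and Bglap in 13, and the osteoclast gene Calcr in 17.

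Differences were tested with limma on log2 (FPKM + 1), adjusted over all genes that averaged 0.1 FPKM or more in the tumors compared, and a gene passed at an adjusted p under 0.05. On this scale changes of genes at low FPKM are understated. In these whole tumors, fewer cells of a type and less RNA per cell cannot be told apart.

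The first question was whether the knock-down changed the integrins in Balb/c hosts. None of the 9 integrins tested passed (Itga8 was under the filter), in a comparison where 1 of 14701 genes passed (0.0068%) and 609 had an unadjusted p under 0.05, among them Itgav and Itgb1 (2.42% of genes had such a p and were lower). The median log2 difference, ATRXKD minus ATRXCT, was −0.0072 for the 9 integrins and −0.0032 for all genes, with 4 integrins above 0 and 5 below. Only Itgav and Itgb1 had groups that did not overlap, both lower in ATRXKD, beside 1.93% of all genes not overlapping in that direction.

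Itgav, the alpha chain of the vitronectin receptors, was measured at 72.5, 79.5, 52.1 and 78.4 FPKM in Balb/c ATRXCT tumors (mice 41, 43, 44 and 45) and at 51.8, 37.3, 35.6 and 47.5 FPKM in ATRXKD tumors (mice 56, 58, 59 and 60). The groups met almost exactly at 51.8 and 52.1 FPKM, the highest ATRXKD tumor and the lowest ATRXCT tumor. The mean was 70.6 ± 12.7 FPKM against 43.0 ± 7.83 FPKM (SD, n = 4 each), a ratio of 0.609. The log2 difference of −0.70 (SE 0.18) did not pass in limma (adjusted p = 0.565). The exact permutation test, two-sided, gave p = 0.0286, the smallest that 4 against 4 allows.

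Itgb1, the shared beta chain, stood at 188, 199, 196 and 201 FPKM in the ATRXCT tumors and at 160, 167, 157 and 165 FPKM in the ATRXKD tumors of these hosts. The spread within each group was small, with SDs of 5.71 and 4.87 FPKM around means of 196.1 and 162.3 FPKM. The log2 difference was −0.27 (SE 0.11, limma adjusted p = 0.999; exact permutation test, p = 0.0286). The limma SE is larger than these SDs alone would give, since it borrows the spread of other genes.

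Itgb5, the beta chain of a vitronectin receptor, was at 65.3, 50.7, 43.0 and 36.7 FPKM in Balb/c ATRXCT and 26.8, 56.4, 35.0 and 24.6 FPKM in ATRXKD. The tumor of mouse 58 lay inside the control range and the other 3 below it, with a log2 difference of −0.49 (SE 0.27, limma adjusted p = 0.999). The remaining integrins had log2 differences between −0.14 for Itga11 and 0.38 for Itga1. For Itga1 and Itgb3 the ATRXKD tumor of mouse 56 was the highest of all 18, at 6.76 and 6.60 FPKM.

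In NSG hosts the same comparison called 994 of 14654 genes (6.78%), and 0 of the 10 integrins. At an unadjusted p under 0.05 there were 2 integrins (Itgb1 and Itgb3), both higher, beside 13.8% of genes higher at that p. The integrins had a median log2 difference of 0.17 (6 above 0 and 4 below), against −0.0014 for all genes. No integrin had groups without overlap, where 7.5% of all genes did.

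Itgb3, the beta chain of platelets and osteoclasts, was at 0.739, 0.931, 1.90, 0.695 and 0.799 FPKM in NSG ATRXCT tumors (mice 1 to 5) and at 1.22, 1.96, 2.28, 2.09 and 2.25 FPKM in NSG ATRXKD tumors (mice 26 to 30). Of the ATRXKD tumors, 4 were above every control, and the groups overlapped through mice 3 and 26. The ratio of the means was 1.93 and the log2 difference 0.57 (SE 0.16), which missed the threshold in limma (adjusted p = 0.0542; exact permutation test, p = 0.0159).

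Itgb1 was at 144, 154, 182, 140 and 141 FPKM in NSG ATRXCT and 174, 206, 179, 172 and 192 FPKM in NSG ATRXKD. The control of mouse 3 lay above 3 of the 5 ATRXKD tumors, and the other 4 controls lay below all of them. The log2 difference was 0.28 (SE 0.098, limma adjusted p = 0.0995; exact permutation test, p = 0.0317).

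The calls in this comparison depended on single tumors, mouse 3 above all. Without it, Itgb3, Itgb1 and Itga1, a collagen receptor chain, passed in limma with log2 differences of 0.71, 0.34 and 0.48 (adjusted p = 0.0098, 0.0233 and 0.0198). In that fit 2080 of 14608 genes passed, against 994 of 14654 with all tumors. Without mouse 26 Itgb3 alone passed (0.67, limma adjusted p = 0.0249), beside 1524 of 14667 genes. No integrin passed when any other tumor was left out. With the trend along transcript length removed from each library, Itgb1 and Itgb3 passed (log2 difference 0.26 and 0.57, limma adjusted p = 0.0401 and 0.0325), beside 1702 of 14635 genes. More genes of all kinds thus passed in each fit that called an integrin.

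The difference between hosts in the knock-down effect was tested as an interaction in a fit of all 18 tumors. No gene of 14803 passed in limma (0%), 1527 (10.3%) had an unadjusted p under 0.05, and the integrins among these were 2, Itgav and Itgb1. Itgb1 was lower in ATRXKD by 0.27 in Balb/c and higher by 0.28 in NSG mice, so the effects differed by −0.55 (SE 0.13, limma adjusted p = 0.188). Permuting the shRNA labels within hosts gave p = 0.000454 (exact, 17640 arrangements) for Itgb1 as a single value, without adjustment for the 10 integrins. This permutation assumes no knock-down effect in either host. A small p from it can thus come from an effect in 1 host or both, and it is no test of the difference alone. For Itgav the effects differed by −0.65 (SE 0.25, limma adjusted p = 0.392; exact permutation p = 0.0719), and for Itgb5 by −0.79 (SE 0.39, limma adjusted p = 0.498; exact permutation p = 0.0774). The knock-down effects on Itga1 and Itgb3 differed between hosts by 0.06 (SE 0.30) and −0.26 (SE 0.31), less than their errors.

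**Figure D2:**
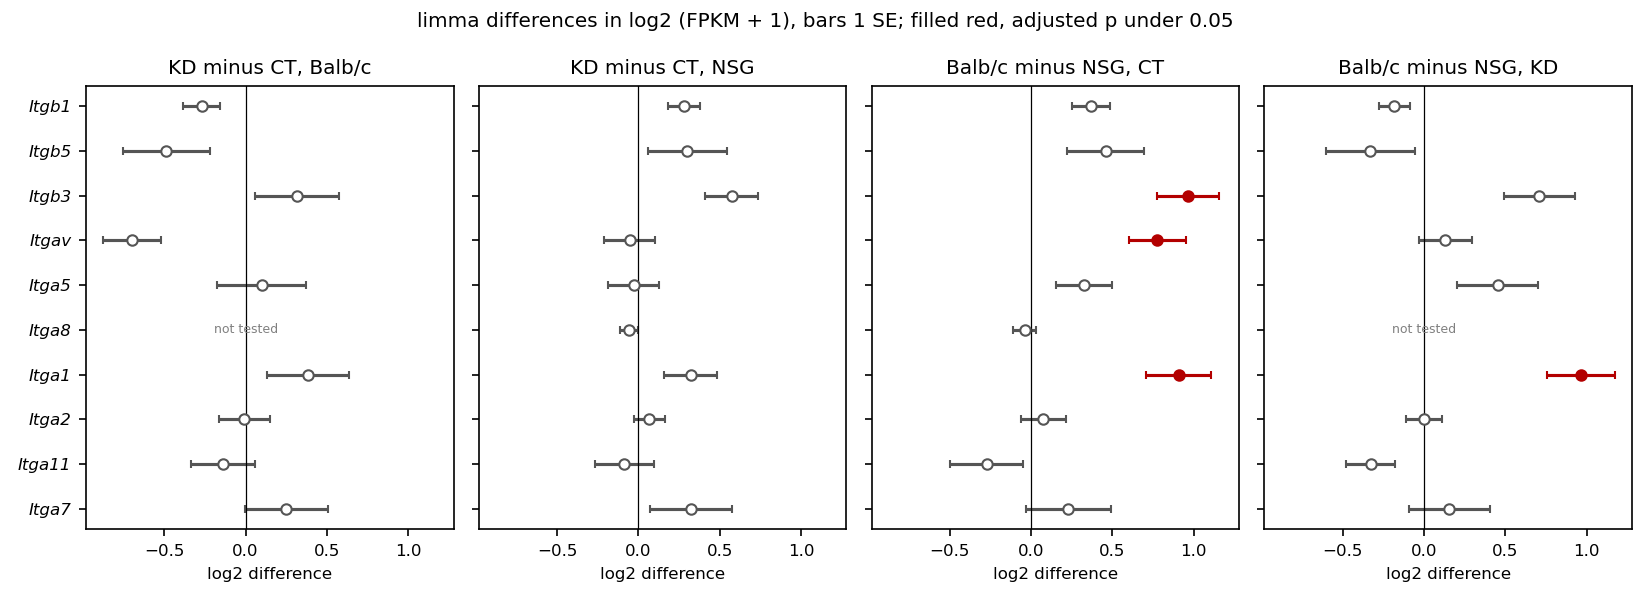
Differences in log2 (FPKM + 1) for each integrin (rows) in 4 comparisons (panels), with bars of 1 SE from limma; filled red points passed at an adjusted p under 0.05 and open points did not. Itgb1 sits at −0.27 in the first panel and at 0.28 in the second, and the only filled points are Itgb3, Itgav and Itga1 in the third panel and Itga1 in the fourth.

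Host comparisons asked how integrin levels differ between Balb/c and NSG tumors of the same cells, and they use the same tumors as the knock-down comparisons, so the results are not independent of those. Among ATRXCT tumors, 3 of the 10 integrins were higher in Balb/c hosts (Itgb3, Itga1 and Itgav), where 310 of 14828 genes passed in that direction (2.09%), and 0 were lower (1.09% of genes). The median log2 difference, Balb/c minus NSG, was 0.35 for the integrins and 0.0084 for all genes, and 8 of 10 were above 0.

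Itgav was at 52.1 to 79.5 FPKM in the 4 Balb/c controls listed above and at 42.3, 33.7, 51.9, 32.3 and 44.3 FPKM in the NSG controls (mice 1 to 5). The groups did not overlap, but only 52.1 and 51.9 FPKM, in mice 44 and 3, separated them. The log2 difference was 0.78 (SE 0.17, limma adjusted p = 0.0371; exact permutation test, p = 0.0159), a ratio of means of 1.73.

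Itga1 was at 2.47, 3.99, 2.00 and 2.94 FPKM in Balb/c ATRXCT and at 0.928, 0.720, 2.09, 0.816 and 0.796 FPKM in NSG ATRXCT tumors. The NSG tumor of mouse 3 lay above the Balb/c tumor of mouse 44, and the other 4 NSG tumors lay below all Balb/c tumors. The log2 difference was 0.91 (SE 0.20, limma adjusted p = 0.0355; exact permutation test, p = 0.0238), with a ratio of means of 2.66.

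Itgb3 was at 2.83, 3.80, 1.86 and 3.17 FPKM in the Balb/c controls, against 0.695 to 1.90 FPKM in the NSG controls, with the same overlap of mice 3 and 44. Its log2 difference of 0.97 (SE 0.19, limma adjusted p = 0.0213; exact permutation test, p = 0.0238) was the largest of the 10, at a ratio of 2.88. Itgb1 did not overlap between hosts either, at 188 to 201 FPKM against 140 to 182 FPKM, and did not pass (log2 difference 0.37, SE 0.11, limma adjusted p = 0.123; exact permutation test, p = 0.0159). Itgav and Itgb1 were thus the 2 integrins without overlap, beside 4.72% of genes in that direction.

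All 3 calls depended on single tumors. They held without mouse 44 or mouse 3, and 0 integrins passed without any one of mice 41, 43, 45, 1, 2, 4 or 5, with limma adjusted p of 0.0117 to 0.131 for Itgav, 0.0043 to 0.115 for Itga1 and 0.0036 to 0.0761 for Itgb3 over the 9 fits. The 2 fits where they held also called more genes, 975 of 14861 without mouse 44 and 825 of 14774 without mouse 3, against 472 with all tumors. The fits where they were lost called fewer genes of all kinds, 276 to 339. The lowest log2 differences of Itgav, Itga1 and Itgb3 over the 9 fits were 0.70, 0.77 and 0.86. The tumor of mouse 45 is the one high in keratinocyte genes, and without it Itgav, Itga1 and Itgb3 were at 0.72, 0.89 and 0.93 (limma adjusted p = 0.106, 0.0921 and 0.0645). With no filter on low values only Itgb3 passed, with the filter at 1 FPKM Itga1 did not pass (limma adjusted p = 0.0535), and at a fold of at least 2 on the log2 scale none did. That fold is of FPKM + 1, which understates genes at low FPKM. The ratios of mean FPKM were 2.66 for Itga1 and 2.88 for Itgb3.

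In ATRXKD tumors, 1 of the 9 integrins tested was higher in Balb/c hosts (2.8% of 14669 genes) and 0 were lower (0.839%), with a median of 0.13 for the integrins and −0.016 for all genes. This was Itga1, at 6.76, 3.76, 2.48 and 3.61 FPKM in Balb/c and 1.03, 1.68, 1.87, 1.48 and 1.63 FPKM in NSG ATRXKD tumors. All 4 Balb/c tumors were above all 5 NSG tumors, with a log2 difference of 0.97 (SE 0.21, limma adjusted p = 0.0309), a ratio of 2.70, and p = 0.00794 in the exact permutation test, the smallest for 4 against 5. The call held only without mouse 56 or without mouse 59 and was lost without mouse 58, 60 or any 1 of mice 26 to 30, with limma adjusted p of 0.0126 to 0.08 over the 9 fits (0.0679 without mouse 60). Fits that kept it called 436 and 555 genes, and those that lost it 338 to 593, against 534 with all tumors. Mouse 60 was high in keratinocyte genes only within its own group. Its sum of 16.3 FPKM lay inside the 1.47 to 18.9 FPKM of the NSG ATRXKD tumors. The call was also lost with no filter on low values.

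Itgb3 showed the same arrangement, at 6.60, 3.50, 2.33 and 3.63 FPKM against 1.22 to 2.28 FPKM, without overlap. It did not pass (log2 difference 0.71, SE 0.22, limma adjusted p = 0.127; exact permutation test, p = 0.00794). Itgb1 was also without overlap but lower in Balb/c, at 157 to 167 FPKM against 172 to 206 FPKM (log2 difference −0.18, SE 0.097, limma adjusted p = 0.39; exact permutation test, p = 0.0159). Background shares of genes without overlap were 5.08% higher and 3.05% lower. Itgav, in contrast to the control tumors, overlapped widely, at 35.6 to 51.8 and 34.1 to 54.4 FPKM (log2 difference 0.13, SE 0.16, limma adjusted p = 0.73).

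Itga1 and Itgb3 followed each other closely although they do not form a receptor together. The ratio of Itgb3 to Itga1 FPKM stayed between 0.797 and 1.41 in all 18 tumors, while Itga1 itself ran from 0.720 to 6.76 FPKM. After the group means were removed, their correlation over the 18 tumors was the highest of the 45 integrin combinations (Pearson r = 0.96, Spearman rho = 0.92; r = 0.93 with the length trend removed). The combination was chosen for its closeness after the values were seen, so no test is given.

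Endothelial genes moved with both. Pecam1, Cdh5, Kdr, Tek, Tie1, Emcn, Egfl7, Esam, Vwf and Cldn5 were all detected in every tumor (10 of 10, none listed at 0). Their summed level was 61.8 to 96.7 FPKM in Balb/c ATRXCT, 86.3 to 198 FPKM in Balb/c ATRXKD, 29.1 to 70.9 FPKM in NSG ATRXCT and 61.0 to 86.7 FPKM in NSG ATRXKD tumors. Within NSG ATRXCT, the highest sum, 70.9 FPKM, was that of mouse 3, and the other 4 lay at 29.1 to 39.5 FPKM.

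Of these genes, 2 were higher in Balb/c hosts among controls (Pecam1 and Cldn5, log2 difference 1.14 and 0.95, limma adjusted p = 0.0348 and 0.0299), beside 2.09% of all genes, and 1 was among ATRXKD tumors (Cldn5, 1.17, limma adjusted p = 0.0109), beside 2.8%. In NSG mice 3 were higher in ATRXKD (Pecam1, Tie1 and Cldn5, 0.93, 0.82 and 0.80, limma adjusted p = 0.028, 0.0368 and 0.024), beside 547 of 14654 genes that were higher. In Balb/c mice 0 of the 10 passed, as did 0.0068% of all genes, with 9 of the 10 above 0 (median 0.52) and Cldn5 at 1.02 (limma adjusted p = 0.492). With group means removed, the log2 endothelial sum correlated with Itga1 (r = 0.94, permutation p = 3.0e-05; rho = 0.92, permutation p = 3.0e-05; r = 0.89 without the 2 farthest tumors) and with Itgb3 (r = 0.93, permutation p = 4.0e-05; rho = 0.88, permutation p = 6.0e-05; r = 0.87 without them). Adjusted over these 2 relations, the permutation p were 4.0e-05 for each r and 6.0e-05 for each rho. The relations were examined after the values were seen, and the part of endothelial cells in the differences of Itga1 and Itgb3 was not tested. Correlations with the sums of other gene lists were not computed, nor was an endothelial r with the length trend removed. Mice 43, 56 and 3, highest of their groups for both integrins and the endothelial sum, were also highest for summed collagen genes. Among NSG ATRXKD tumors, mouse 28 was highest for both integrins and the endothelial sum, and mouse 30 for collagen genes. Whether the relations are particular to endothelial genes was not tested.

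**Figure D3:**
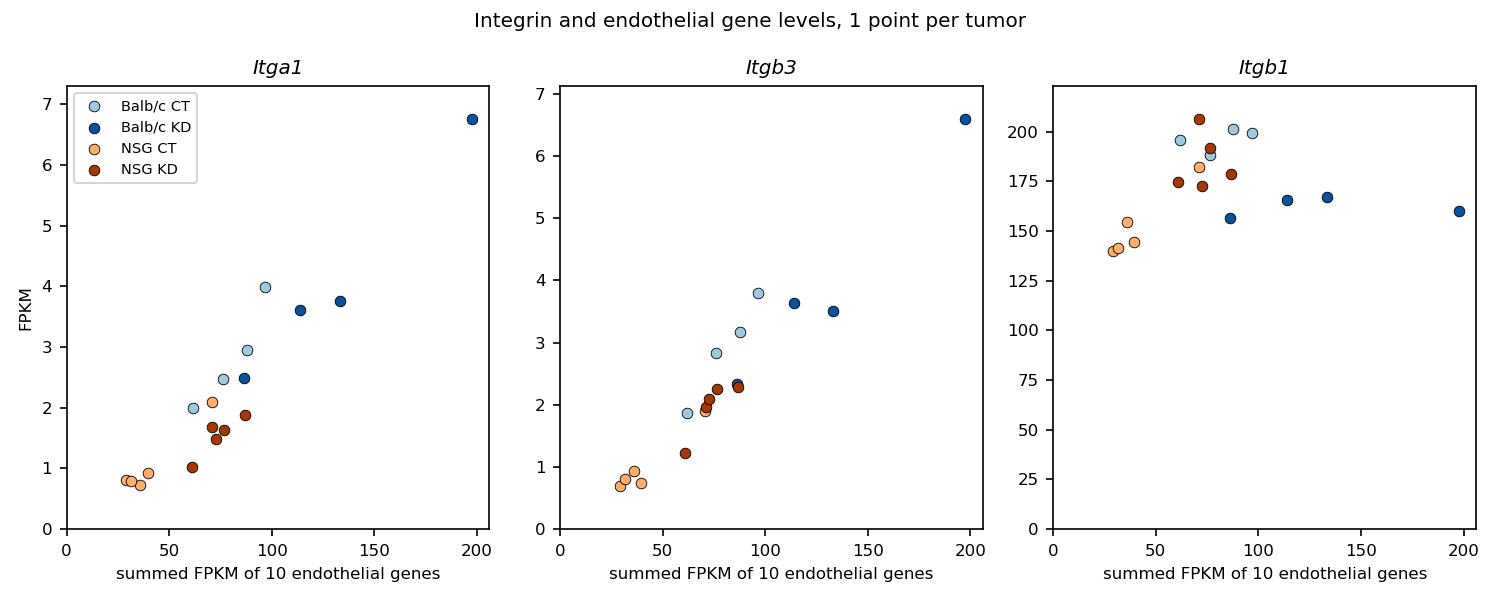
FPKM of Itga1, Itgb3 and Itgb1 (vertical axes) against the summed FPKM of 10 endothelial genes (horizontal axis), 1 point per tumor, colored by group. Itga1 and Itgb3 rise along the endothelial sum, with mouse 56 at the far end (198 FPKM), whereas Itgb1 in the Balb/c ATRXKD tumors stays at 157 to 167 FPKM while the sum goes from 86.3 to 198.

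Other cells known to carry Itgb3 were counted as well. Of 8 platelet and megakaryocyte genes, 1 was lower in NSG ATRXKD tumors (Pf4, log2 difference −0.80, limma adjusted p = 0.0445), with summed levels of 217 to 417 FPKM against 383 to 604 FPKM in NSG controls. The sum was mostly Pf4 (mean 329.5 FPKM over the 18 tumors), and Gp6 was listed at 0 in 14 tumors. The part of platelets in the Itgb3 values was not tested. Of 8 osteoclast genes, Mmp9 was higher (0.61, limma adjusted p = 0.0148) and Atp6v0d2 lower (−0.92, limma adjusted p = 0.0255) in NSG ATRXKD tumors. Their summed levels were 77.4 to 90.5 FPKM, inside the 71.7 to 96.3 FPKM of the NSG controls.

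Genes whose pattern over the 18 tumors, with group means removed, was most like that of each integrin were sought among 12181 genes averaging 1 FPKM or more, and they are named with no test. For Itga1 these were Inhbb (r = 0.98), Robo4 (0.96) and Kdr (0.96), and for Itgb3 they were C130074G19Rik (0.97), Robo4 (0.97) and Nid1 (0.96). Itgav was most like Vwa8, Wdr7 and Zswim8 (each r = 0.96), Itgb1 most like Mbtps1 (0.90), Lars (0.90) and Pabpc4 (0.88), and Itgb5 most like Pmepa1 (0.92), Tbc1d23 (0.90) and Klhl30 (0.86). Itga5 was most like Sufu (0.92), Arhgap17 (0.92) and Myadm (0.91), Itga2 most like Pofut1 (0.87), Stx2 (0.87) and Eml2 (0.86), and Itga7 most like Tha1 (0.84), Pdgfa (0.82) and Bdkrb2 (0.78). For Itga11 (Vegfc, Il6st and Por) and Itga8 (Gen1, Ccnd2 and Sp8) the highest r were 0.77 and 0.76. With the length trend removed, r was 0.85, 0.85 and 0.84 for Itgav with Vwa8, Wdr7 and Zswim8. For Itgb1 with Mbtps1, Lars and Pabpc4 it was 0.84, 0.80 and 0.67. Itga2 with Pofut1 was then at 0.62 and Itga7 with Pdgfa at 0.59, whereas Itga1 with Inhbb stayed at 0.96 and Itgb5 with Pmepa1 at 0.93. Robo4 and Kdr are receptors of endothelial cells, and Kdr is also on the endothelial list.

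Several integrins also moved with a technical measure of the libraries. For each library the slope of log2 expression along log2 transcript length, relative to the other libraries, ran from −0.15 (NSG mouse 4) to 0.21 (Balb/c mouse 56). Balb/c ATRXCT libraries had a median slope of 0.072, Balb/c ATRXKD 0.010, NSG ATRXCT −0.065 and NSG ATRXKD −0.043. With group means removed, the slope correlated with Itgav at r = 0.90 (permutation p = 2.0e-05, adjusted over 10 integrins 0.0002; rho = 0.89, permutation p = 8.0e-05, adjusted 0.0008; r = 0.88 without the 2 farthest tumors).

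Itga1 (r = 0.78), Itgb3 (0.77), Itga5 (0.77), Itga2 (0.60) and Itgb1 (0.54) also passed by r (adjusted permutation p = 0.00375, 0.00375, 0.00375, 0.0465 and 0.0162). By rho, Itga1, Itgb3 and Itga5 passed (rho = 0.73, 0.70 and 0.69, adjusted permutation p = 0.0113, 0.0113 and 0.014), and Itga2 and Itgb1 did not (0.55 and 0.42, adjusted permutation p = 0.0882 and 0.1). Without the 2 farthest tumors these 5 were at r = 0.74, 0.76, 0.64, 0.48 and 0.55. Itgb5, whose transcripts are the shortest, was at −0.0072, and Itga8, Itga7 and Itga11 at 0.41, 0.26 and 0.10, none of which passed. The share of all genes that follow the slope was not computed. Transcripts of the 10 integrins lie at percentiles 59.7 to 93.8 of length among genes averaging 1 FPKM or more. The number that passed therefore cannot be read as a result about integrins.

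With the trend removed from each library, the differences of Itgav were −0.65 for the knock-down in Balb/c mice (limma adjusted p = 0.214) and 0.63 between hosts among controls (limma adjusted p = 0.0104). Itga1 and Itgb3 also passed among controls with the trend removed, at 0.83 and 0.89 (limma adjusted p = 0.0195 and 0.0101). Itga1 kept its call among ATRXKD tumors, at 0.92 (limma adjusted p = 0.0109).

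**Figure D4:**
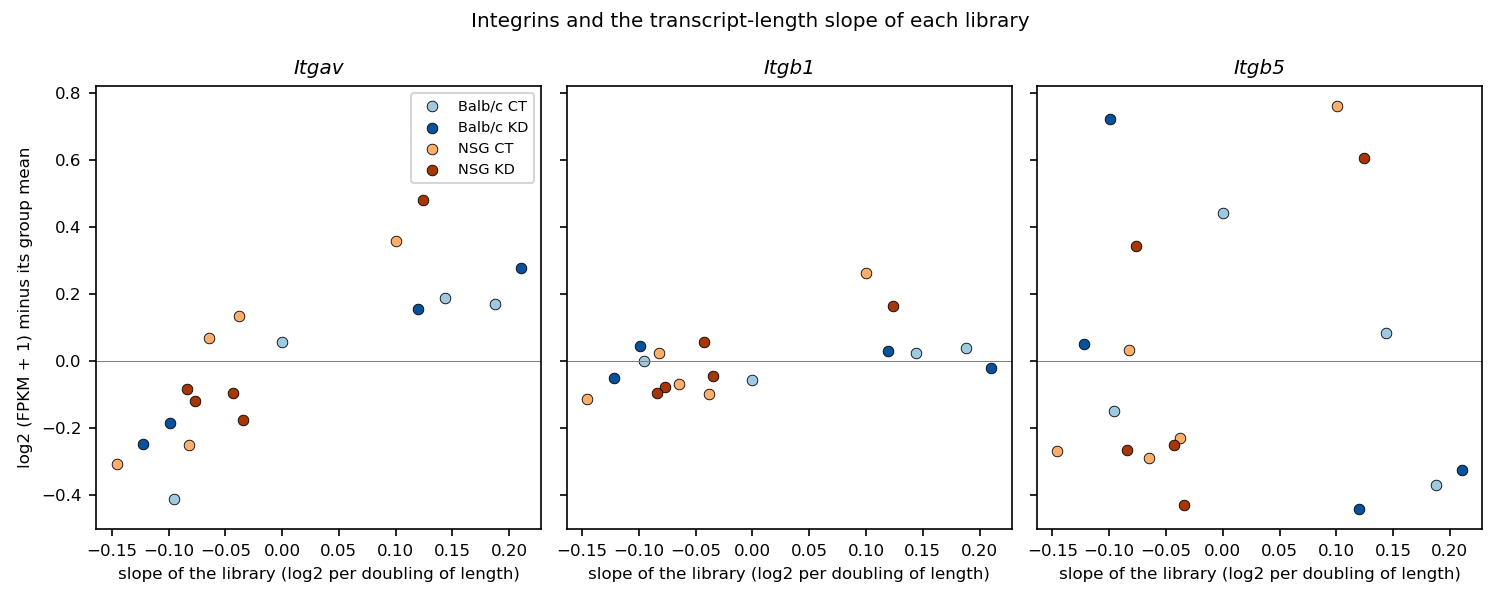
Log2 (FPKM + 1) of Itgav, Itgb1 and Itgb5 minus its group mean (vertical axes) against the slope of each library along transcript length (horizontal axis), 1 point per tumor. Itgav climbs with the slope (r = 0.90 on group-centered values), Itgb1 less (0.54), and Itgb5 shows no trend (−0.0072).

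Partner chains that form receptors together were compared over the 18 tumors with group means removed, 9 combinations in all, with permutation within groups. None passed by r or by rho. The closest were Itgav with Itgb3 (r = 0.63, adjusted permutation p = 0.0502; rho = 0.64, adjusted permutation p = 0.0952; r = 0.67 without the 2 farthest tumors) and Itga7 with Itgb1 (r = 0.67, adjusted permutation p = 0.0502; rho = 0.54, adjusted permutation p = 0.126; r = 0.50 without them). With the length trend removed, r was 0.22 for Itgav with Itgb3 and 0.59 for Itga7 with Itgb1.

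For the beta chains that pair with Itgav, the FPKM ratio of Itgb5 to Itgb3 had a median of 18.2 in Balb/c ATRXCT (11.6 to 23.1), 10.9 in Balb/c ATRXKD (4.06 to 16.1), 38.0 in NSG ATRXCT (31.2 to 41.0) and 16.9 in NSG ATRXKD tumors (13.8 to 44.5). Every NSG control was above every Balb/c tumor, and among NSG ATRXKD tumors mouse 26 lay above all NSG controls, mouse 27 among them and the other 3 below. This ratio was formed after the values were seen and is given without a test.

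The remaining integrins can be given briefly. Itga5, the fibronectin receptor chain, was at 16.5 to 28.3, 16.1 to 41.8, 15.8 to 23.0 and 14.9 to 24.9 FPKM in Balb/c ATRXCT, Balb/c ATRXKD, NSG ATRXCT and NSG ATRXKD tumors, with log2 differences of at most 0.45 (host, ATRXKD tumors, SE 0.25, limma adjusted p = 0.408). Itga2, a collagen receptor chain of platelets and epithelium, stayed at group means of 0.561 to 0.654 FPKM. Itga11, the collagen receptor chain of fibroblasts, had group means of 0.428, 0.275, 0.732 and 0.603 FPKM in the same order, and was lower in Balb/c by 0.33 among ATRXKD tumors (SE 0.15, limma adjusted p = 0.318). Itga7 had group means of 1.89, 2.42, 1.50 and 2.10 FPKM, beside skeletal muscle genes whose sum ran from 1.58 to 541 FPKM over the tumors.

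Ligands and adaptors of the integrins were counted from lists of genes. Of 21 matrix ligand genes, 1 was higher in NSG ATRXKD tumors (Mfge8, which binds Itgav receptors; log2 difference 0.54, limma adjusted p = 0.0328, of 19 tested) and the same gene was lower in Balb/c among ATRXKD tumors (−0.45, limma adjusted p = 0.0463, of 18 tested). None passed in the other comparisons, where Tnc, an adhesion-modulating matrix protein, was farthest from 0 at −0.79 for the knock-down in Balb/c and 0.88 between hosts among controls. None of 7 collagen genes passed in any comparison. All 7 were above 0 in NSG ATRXKD against NSG ATRXCT (median 0.66, Col3a1 highest at 1.18, limma adjusted p = 0.0597), and their median was −0.011 in Balb/c mice.

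Among 28 adaptors and kinases, 27 were tested. In NSG mice, Parva (log2 difference 0.40), Rsu1 (0.33) and Ptk2 (0.27), which encode a parvin, a partner of the same complex and the focal adhesion kinase, were higher in ATRXKD (limma adjusted p = 0.0306, 0.0368 and 0.0449), and Parvg, the parvin of blood cells, was lower (−0.87, limma adjusted p = 0.0456). Parvg was higher in Balb/c hosts among ATRXKD tumors (1.11, limma adjusted p = 0.0133), and no adaptor passed in Balb/c knock-down or between hosts among controls. The list medians for the 4 comparisons, knock-down in Balb/c and NSG and host in ATRXCT and ATRXKD, were −0.020, 0.12, 0.22 and −0.010.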

How the data were processed

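RNA of 18 K7M2 tumors was analysed. Per the study's methods and the submitters' processing notes, ribo-depleted stranded libraries were read in pairs, STAR 2.6.0c placed the reads on mm10, low-quality reads and duplicates were discarded, and Cufflinks 2.2.1 gave FPKM for RefSeq genes. The authors deposited log2 (FPKM + 1) values, 20970 entries of which 92 are spike-ins and 20878 genes. FPKM was recovered from them. Depth was estimated from the steps between low values, of which 33.0% to 40.0% per library lay within 0.1 of a whole fragment, so whole reads were not recovered and no count test was run.

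For differences, limma 3.58.1 under R 4.3.3 (linear fits, eBayes with trend, Benjamini-Hochberg) was run on each pair of groups alone, and the interaction on all groups. Single values were compared by exact permutation tests, two-sided, on log2 (FPKM + 1), and relations over tumors by 100000 permutations within groups. The steps were tested on simulated data. Alternatives were a pseudocount of 0.1, a filter at 1 FPKM or none, a fold of at least 2, median-ratio scaling, removal of the length trend, library weights, all groups in 1 fit, and leaving out each tumor. The setting with library weights also used the robust form of eBayes, so it changed both at once. Leaving out Balb/c mice 45 and 60 was added after seeing the data. Named genes were the integrins, Atrx, up to 5 passing genes per list and comparison (otherwise the one farthest from 0), and the 3 most alike genes per integrin. The integrins and the lists were chosen with earlier results of these data known. Figures were drawn with Python 3.11.15.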

Additional observations from a re-analysis of the deposited data

Results flagged for a closer look

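In each of 40 sets of values, 1 integrin in 1 group, the highest or lowest tumor was compared with the rest by Dixon's ratio, the gap to the nearest tumor over the whole range. Chance would give about 2 distant tumors among 40 independent sets, and there were 5. The sets are not independent, because they share the same 18 tumors and some integrins move together (Itga1 with Itgb3, r = 0.96). The count of 5 therefore cannot be read as an excess. Of these, 3 were the NSG ATRXCT tumor of mouse 3, which was the highest of its group for Itga1 (2.09 FPKM, ratio 0.806), Itga7 (3.15 FPKM, ratio 0.711) and Itgb3 (1.90 FPKM, ratio 0.757). Its endothelial sum of 70.9 FPKM and its length slope of 0.10 were also the highest of that group, as were its summed skeletal muscle genes (374 FPKM, against 6.09 to 167 FPKM in the other 4) and its pericyte and smooth muscle genes (75.7 FPKM, against 20.4 to 45.3 FPKM). The NSG ATRXKD tumor of mouse 27 was the highest of its group for Itgav (54.4 FPKM, ratio 0.861), and its length slope of 0.12 was the highest there too. The NSG ATRXKD tumor of mouse 26 was the lowest of its group for Itgb3 (1.22 FPKM, ratio 0.735), as it was for the endothelial sum (61.0 FPKM). The part of these measures in the distant values was not tested.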

How the results depend on the processing

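Limits: groups of 4 or 5 tumors, unknown cages, whole-tumor RNA and approximate depth bound every statement here. No paired analysis was possible because the mouse numbers of the groups are all different. The cause of each change below was not tested.

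Genes passing were 1 for the knock-down in Balb/c mice, and 0 with the filter at 1 FPKM or no filter, 22 with library weights, 16 with all groups in 1 fit and 2 without mice 45 and 60. For the knock-down in NSG mice they were 994, and 68 at a fold of at least 2 and 1702 with the length trend removed (2 integrins, against 0). With library weights 5414 of 14654 genes passed, and 3 integrins (Itga1, Itgb1 and Itgb3). Between hosts among controls, 472 genes and 3 integrins passed. There were 212 genes and 0 integrins at a fold of at least 2, 275 genes and 2 integrins (Itgav and Itgb3) with the filter at 1 FPKM, 1 integrin (Itgb3) with no filter, 3290 genes and 6 integrins with library weights, 828 genes with all groups in 1 fit and 0 integrins without mouse 45. Between hosts among ATRXKD tumors, 534 genes and 1 integrin passed. There were 204 genes and 0 integrins at a fold of at least 2, 328 genes with the filter at 1 FPKM, 0 integrins with no filter or without mouse 60, and 1778 genes with library weights. The interaction gave 0 genes, 1985 genes and 3 integrins with library weights (Itgav, Itgb1 and Itgb3, limma adjusted p = 0.0169, 0.0104 and 0.0431) and 1 gene without mice 45 and 60. Of 9 neighbors in the order of levels, 5 differed, and 3 without the NSG tumors.

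Leaving out single tumors gave 0 to 2 genes for the knock-down in Balb/c mice, 144 to 2080 genes and 0 to 3 integrins in NSG mice, 276 to 975 genes and 0 to 4 integrins between hosts among controls, 338 to 593 genes and 0 to 2 integrins among ATRXKD tumors, and 0 to 1 gene for the interaction.

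Signs turned only for integrins that did not pass. For the knock-down in Balb/c mice, log2 differences became −0.21 for Itga5 and 0.047 for Itga11 with library weights, and for Itga2 0.016 with a pseudocount of 0.1, 0.0074 with the length trend removed and 0.11 without mice 45 and 60. For the knock-down in NSG mice, Itga11 was at 0.085 with library weights. Between hosts among ATRXKD tumors, Itga2 was at −0.028 with a pseudocount of 0.1 and −0.011 with the length trend removed, and Itgb5 at 0.26 with library weights. In the interaction, library weights gave −0.15 for Itga5, −0.00037 for Itga8, −0.22 for Itga1, 0.027 for Itga11 and 0.44 for Itga7, a pseudocount of 0.1 gave −0.088 for Itga1, and leaving out mice 45 and 60 gave 0.046 for Itga2 and 0.23 for Itga7.

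Over single tumors left out, these ranges crossed 0. For the knock-down in Balb/c mice they were −0.13 to 0.31 (Itga5), −0.14 to 0.082 (Itga2) and −0.26 to 0.038 (Itga11). In NSG mice they were −0.17 to 0.035 (Itgav), −0.14 to 0.042 (Itga5) and −0.18 to 0.055 (Itga11). Between hosts among ATRXKD tumors they were −0.086 to 0.091 (Itga2) and −0.022 to 0.29 (Itga7). For the interaction they were −0.10 to 0.34 (Itga5), −0.0050 to 0.069 (Itga8), −0.16 to 0.23 (Itga1), −0.21 to 0.016 (Itga2), −0.20 to 0.12 (Itga11) and −0.27 to 0.12 (Itga7). Of the other values for single integrins with all tumors kept or mice 45 and 60 left out, 358 kept direction and side of the threshold, 12 newly passed and 12 no longer passed.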

Other observations

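Other integrin genes were counted in lists of leukocyte integrins and of other subunits, and the latter includes laminin receptor chains such as Itgb4. Of 8 leukocyte integrins, Itgal, the alpha chain of LFA-1, was higher in Balb/c hosts among ATRXCT tumors (log2 difference 2.21, limma adjusted p = 7.28e-06) and among ATRXKD tumors (2.30, limma adjusted p = 0.000345). Among ATRXKD tumors, Itga4, the lymphocyte receptor chain for VCAM-1, was higher (1.15, limma adjusted p = 0.00668) and Itgad lower (−0.33, limma adjusted p = 0.0423) in Balb/c hosts. Itgb7, a partner of Itga4, was higher in NSG ATRXKD than NSG ATRXCT tumors (0.78, limma adjusted p = 0.0239), and 0 of the 7 tested passed for the knock-down in Balb/c mice. Of 8 other integrin subunits, none passed in any of the 4 comparisons, and 7 of 8 were above 0 between hosts among controls (median log2 difference 0.21, against 0.35 for the 10 matrix-binding integrins). The nearest was Itgb4, the beta chain of hemidesmosomes, at 0.59 for the knock-down in NSG mice (limma adjusted p = 0.0532).

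The remaining cell type lists gave these counts. In NSG ATRXKD tumors, 3 of 10 macrophage genes were lower (C1qb, C1qc and Lyz2, log2 difference −0.74, −0.62 and −0.97, limma adjusted p = 0.0268, 0.0481 and 0.04), with summed levels of 1973 to 3512 FPKM against 3092 to 4308 FPKM, and 1 of 8 tested pericyte and smooth muscle genes was higher (Mcam, 1.06, limma adjusted p = 0.0483). Among controls, 6 of 10 mast cell genes were higher in Balb/c hosts, led by Tpsab1 (4.12, limma adjusted p = 2.21e-05), a gene that was also higher among ATRXKD tumors (1.59, limma adjusted p = 0.0446), and in NSG ATRXKD tumors Gata2 was higher (0.52, limma adjusted p = 0.0134). For the knock-down in Balb/c mice 0 of the 10 mast cell genes passed, 9 were below 0 (median log2 difference −1.58, Tpsab1 at −2.44, limma adjusted p = 0.295), and the summed levels of 49.9 to 125 FPKM in ATRXKD and 189 to 442 FPKM in ATRXCT tumors did not overlap. The study used a different test, DESeq, for this comparison. It reported a cluster of mast cell genes as lower in ATRXKD tumors, and fewer tryptase-stained cells. Of 10 fibroblast genes, Thy1, which T cells also carry, was higher in Balb/c hosts in both host comparisons (1.89 and 1.24, limma adjusted p = 2.07e-05 and 0.0123), Dpt and Ly6a were lower among controls (−1.10 and −1.50, limma adjusted p = 0.0498 and 0.0324) and Lum was lower among ATRXKD tumors (−0.9998, limma adjusted p = 0.0421). Among ATRXKD tumors, the osteoclast genes Dcstamp and Mmp9 were lower in Balb/c hosts (−0.79 and −0.42, limma adjusted p = 0.0169 and 0.0457). No osteoblast, skeletal muscle or keratinocyte gene passed in the 4 comparisons.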
